A study of Danio rerio with 6 samples.

Results

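The type III receptor tyrosine kinases and their ligands were followed in zebrafish embryos with and without the receptor gene csf1ra. The group was defined by gene name as csf1ra, csf1rb, kita, kitb, pdgfra and pdgfrb among the receptors and csf1a, csf1b, il34 and kitlga among the ligands, 10 genes in all. Of these, 9 had a value in the tables used here, among 19364 genes with a value, and pdgfrb was not analysed here. RNA was sequenced from whole embryos at 3 days post fertilisation, in 3 libraries of wild-type fish, whose titles carry the letters TU, and 3 of fish of the genotype csf1ra-/-, made with CRISPR/Cas9. The labels give 30 embryos, which can be read as per genotype or per library, and leave unstated whether each library is its own clutch, and every p-value here reflects library-to-library spread, which may be partly technical. The mutation was carried by the whole embryo, the labels give no sequence of the allele, and no embryo was sorted into cell types.

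Type III receptors carry immunoglobulin-like domains outside the cell and a kinase domain split by an insert inside it. A ligand dimer joins a pair of receptors, which then phosphorylate each other and pass the signal to adaptor proteins, Src family kinases, PI3 kinase and the MAP kinase chain. In zebrafish, csf1ra is best known for the yellow xanthophores and for macrophages and microglia, kita for the migration and survival of melanophores, and pdgfra for neural crest and mesenchyme. Many of the genes exist as pairs, since the teleost ancestor duplicated its genome and both copies often stayed.

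The values are FPKM, fragments scaled to transcript length and library size, for the ends and exon choices of transcripts. Each is listed as an event: a first exon, a last exon, a skipped or retained segment. A gene's level in a library was the larger of its summed first-exon and its summed last-exon FPKM, and an event that a library does not list can be at 0 or can have been assigned to another structure. Libraries listed 60204 to 61834 events, and the sources used here give no read totals. On the second principal component, which held 18.3% of the variance, mutant replicate 3 lay at -30.5, against -2.17 to 14.4 in the other libraries. Differences are mutant minus wild type in log2(FPKM + 1), from a limma fit over 15475 genes with Benjamini-Hochberg adjustment and a threshold of 0.05, and adding 1 understates the change of low genes.

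Of the 9 measured genes, csf1ra fell in the mutant and the other 8 did not pass the test. All 9 passed the filter on low values, csf1ra through its wild-type libraries alone. Over all 15475 genes tested, 2.42% passed, 1.2% lower and 1.21% higher in the mutant. The median log2 fold change was 0.078 over the 9 genes and 0.016 over all genes. The genotypes did not overlap in 2 that were lower in the mutant, csf1ra and the events labelled csf1rb, and in 1 that was higher, il34. Of all genes, 22.3% did not overlap, 10.2% with the mutant lower and 12.1% with it higher. These counts and the median over the 9 genes include the events labelled csf1rb, which are not taken as a measure of that receptor, as given below. The unadjusted limma p was under 0.05 in 1 of the 8 genes that did not pass, the events labelled csf1rb.

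**Figure D1:**
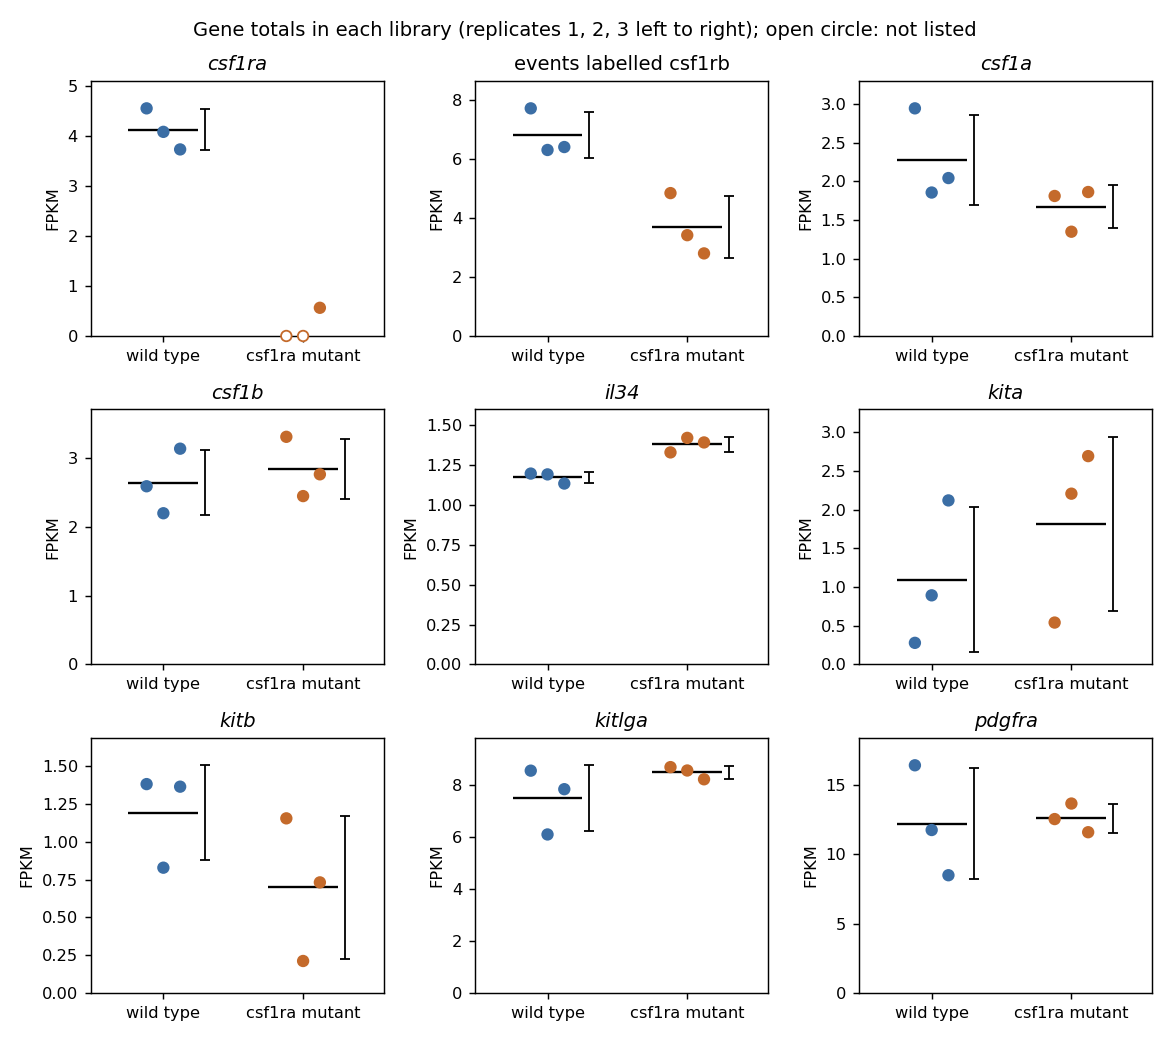
Gene totals in FPKM for each of the 9 measured genes, by genotype. Points are single libraries (replicates 1, 2 and 3 from left to right), open circles are libraries that did not list the gene, bars are the mean and whiskers the SD of 3 libraries, both left out for csf1ra in the mutant. The genotypes are apart for csf1ra, for the events labelled csf1rb and for il34, and overlap in the other 6 genes.

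csf1ra, the targeted receptor gene (ENSDARG00000102986; GRCz10 chromosome 14, 3170816 to 3202049, minus strand), was measured at 4.54, 4.07 and 3.72 FPKM in wild-type replicates 1, 2 and 3. Mutant replicates 1 and 2 did not list it, and mutant replicate 3 held 0.563 FPKM. With an unlisted gene taken as 0, every wild-type library thus lay above every mutant library. Each library also held 2901 to 3110 events with no gene assigned, which entered no gene's level. Whether any of these come from csf1ra was not tested. The filter on low values was passed through the wild-type libraries alone. With missing listings entered as 0, limma gave a log2 fold change of -2.14 (SE 0.22, adjusted p = 0.00284). When they were entered as missing, mutant replicate 3 alone stood for the mutant and the difference was -1.71, a value with no mutant replicate behind it. With 0.1 in place of 1 added to each value it was -4.48 (SE 0.79, adjusted p = 0.0423). The size of the fall thus depends on the value given to an unlisted gene and on the amount added.

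The csf1ra value of mutant replicate 3 rests on its first-exon event alone, which is not read as a partial transcript. Wild-type libraries listed the csf1ra first exon (3201757 to 3202038), its last exon (3170816 to 3171543) and the spliced form of a 68-base intron (3189009 to 3189076). Mutant replicate 3 listed the first exon and neither the last exon nor the spliced intron, and the other mutant libraries listed none of these events. By last-exon events alone, csf1ra stood at 4.44, 4.07 and 3.72 FPKM across wild-type libraries and was listed in no mutant library. A form that keeps the 68-base intron appeared in wild-type replicate 1 alone, at 0.106 FPKM or 2.34% of both forms. In the authors' deposited table the main csf1ra transcript was tested with an adjusted p of 0.000466. Its header names the sides by number and not by genotype, and no level or direction is taken from it.

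Xanthophore and macrophage genes are the usual company of csf1ra, and their levels were read from marker lists. These lists were chosen with earlier results of these data known, so the counts are a description. Of 8 tested xanthophore markers, 5 were called lower in the mutant and 0 higher, against 1.2% lower and 1.21% higher over all tested genes. The summed level of the list was 147 to 165 FPKM across wild-type libraries and 27.5 to 37.8 in the mutant. gch2 alone held 100 to 111 FPKM of the wild-type sum and 11.3 to 16.6 of the mutant sum. The 5 were gch2, aox5, slc2a11b, slc2a15a and slc2a15b, while xdh, pax7a and pax7b did not pass. aox5, at 0.590 to 0.848 FPKM in the mutant, passed the filter on low values through the wild-type libraries alone. Of 11 tested macrophage and microglia markers, 3 were called lower and 0 higher. The 3 were ccl34b.1, lgals3bpb and spi1a, and the call of spi1a depends on the setting, as given below. spi1b, lcp1, havcr1, apoeb, coro1a, slc7a7, mfap4 and mrc1a did not pass. Below the filter, marco stood at 0.390 to 0.639 FPKM in wild type and 0.645 to 1.75 in the mutant, and irf8 at 0.966 to 1.97 and 0 to 0.885. The 17 listed genes with a value summed to 375 to 396 FPKM across wild-type libraries and 333 to 353 in the mutant. Most of that sum was apoeb, at 323 to 347 and 301 to 321 FPKM, a gene that other tissues also express. The complement genes c1qa and c1qb were at 0 or under 0.2 FPKM in every library. In whole embryos, fewer cells of a type and less RNA per cell cannot be told apart, and the part of these markers in the fall of csf1ra was not tested.

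csf1rb, the second csf1r copy, known in zebrafish for blood formation and microglia, could not be read from its events. The events labelled csf1rb (ENSDARG00000053624) stood at 7.71, 6.30 and 6.40 FPKM across wild-type libraries and 4.84, 3.41 and 2.80 in mutant replicates 1, 2 and 3, and the genotypes did not overlap. Their log2 fold change was -0.75 (SE 0.17, 95% interval -1.16 to -0.35, limma adjusted p = 0.0793), and -0.93 without mutant replicate 1. Without that library the adjusted p was 0.0486 over the genes tested in all 6 libraries and 0.0551 when the filter was applied again to the remaining 5. These events run from 43846478 to 43853754 on the plus strand of GRCz10 chromosome 21. They cover 7277 of the 39472 bases, or 18.4%, of the locus to 43885949 that the deposited table gives csf1rb.

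The deposited table places a second gene in that locus, si:ch1073-309n14.1. In the authors' deposited table, its transcript was tested with an adjusted p of 0.0884, while neither of the 2 csf1rb transcripts was tested. For the other 8 measured genes the table gives no second gene in the locus. The events labelled csf1rb cannot be told apart from si:ch1073-309n14.1, so their values are not taken as a measure of the second receptor.

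The share of csf1ra in the summed FPKM of csf1ra and csf1rb rests on those same events. It was 37.1%, 39.3% and 36.8% in wild type, 0 in mutant replicates 1 and 2, and 16.8% in mutant replicate 3. These shares restate the listing of csf1ra given above, and they are given as a description with no test.

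The ligands of the csf1 receptors are csf1a and csf1b, copies of the cytokine gene colony-stimulating factor 1, and il34, which encodes interleukin 34, a cytokine that binds the same receptor. None of them passed the test. csf1a (ENSDARG00000075343; chromosome 11, 23012133 to 23044168, plus strand) measured 2.95, 1.86 and 2.04 FPKM across wild-type libraries and 1.81, 1.35 and 1.86 in the mutant. The highest mutant library lay just above the lowest wild-type library, so the genotypes overlapped. The difference was -0.29 on the log2 scale (SE 0.18, 95% interval -0.70 to 0.12, limma adjusted p = 0.481), and -0.15 when wild-type replicate 1 was dropped. In the authors' deposited table csf1a had an adjusted p of 0.00905.

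csf1b (ENSDARG00000068263; chromosome 8, 37136136 to 37169983, plus strand) measured 2.59, 2.201 and 3.14 FPKM across wild-type libraries and 3.31, 2.45 and 2.77 in the mutant. Its values were mixed between the genotypes, with a log2 fold change of 0.078 (SE 0.15, 95% interval -0.28 to 0.44, limma adjusted p = 0.852). The sign turned when wild-type replicate 2 was dropped (-0.011) or mutant replicate 1 (-0.0077).

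il34 (ENSDARG00000091003; chromosome 18, 18538104 to 18554292, minus strand) was the most even of the 9 genes, with its highest library 1.25 times its lowest. It stood at 1.20, 1.19 and 1.13 FPKM across wild-type libraries and 1.33, 1.42 and 1.39 in the mutant. All mutant libraries lay above all wild-type libraries, as 12.1% of all tested genes did. Between genotypes it differed by 0.13 on the log2 scale (SE 0.15, 95% interval -0.22 to 0.48), with a limma adjusted p of 0.721. That SE and interval are not the scatter of il34 alone, since limma draws the spread toward that of other genes of similar level. Without the trend and robust options the SE was 0.082 and the limma adjusted p 0.499. For csf1a and csf1b the first-exon and last-exon sums were equal within 1% in all 6 libraries, and for il34 in 5, with the last exon at 89.5% of the first in mutant replicate 3.

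The Kit receptors are kita, which acts in melanophores, and kitb, its copy, and kitlga encodes the Kit ligand that guides them. kitlga (ENSDARG00000070917; chromosome 25, 18022506 to 18044137, minus strand) measured 8.56, 6.10 and 7.85 FPKM across wild-type libraries and 8.70, 8.57 and 8.23 in the mutant. The mutant libraries lay close together near the upper end of the wild-type range. Between genotypes kitlga differed by 0.17 on the log2 scale (SE 0.13, 95% interval -0.12 to 0.46, limma adjusted p = 0.563). Dropping wild-type replicate 2 made it 0.046, and dropping wild-type replicate 1 made it 0.26.

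kita (ENSDARG00000043317; chromosome 20, 22435838 to 22478728, minus strand) was the most uneven of the genes listed in all 6 libraries, with a highest value 9.65 times the lowest. It stood at 0.279, 0.893 and 2.12 FPKM across wild-type libraries and 0.541, 2.21 and 2.69 in the mutant. Each genotype held both low and high libraries. The log2 fold change was 0.42 (SE 0.42, 95% interval -0.56 to 1.4, limma adjusted p = 0.676). Over the runs that dropped a single library it ranged from 0.12 (wild-type replicate 1) to 0.81 (mutant replicate 1).

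The last exon of kita (22431502 to 22436559) lies mostly outside the locus given above, which starts at 22435838. The kita events span 110% of the locus length, and the effect of this on its levels was not tested. The events of kita differed between libraries in more than their level. In wild-type replicate 3 and mutant replicate 3 the last exon held 315% and 268% of the first-exon FPKM, and in the other libraries both ends were equal. A 15-base choice of exon end, between an exon of 285 bases (22469299 to 22469583) and one of 300 bases (22469299 to 22469598), also went to different sides. The longer exon held 91.5%, 92.2% and 96.5% of both forms in wild-type replicates 1 and 2 and mutant replicate 1, and it was the sole form listed in mutant replicate 3. Wild-type replicate 3 and mutant replicate 2 listed the shorter exon alone. Each genotype therefore held libraries of either kind.

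kitb (ENSDARG00000056133; chromosome 1, 18780091 to 18809441, minus strand) measured 1.38, 0.829 and 1.37 FPKM across wild-type libraries and 1.16, 0.211 and 0.732 in the mutant. Mutant replicate 2 was the lowest, and mutant replicate 1 lay within the wild-type range. The log2 fold change was -0.40 (SE 0.26, 95% interval -0.99 to 0.20, limma adjusted p = 0.501). It was -0.17 when mutant replicate 2 was dropped and -0.88 with 0.1 in place of 1 added to each value. By first-exon events alone the difference was -0.049, since wild-type replicate 2 did not list the first exon at all. The main last exon (18775211 to 18780249) lies mostly outside the locus given above, which starts at 18780091. The kitb events span 117% of the locus length, and the effect of this on its levels was not tested. A second last exon (18803987 to 18804601) lies near the start of the gene and marks a short form. That form held 0 to 10.7% of last-exon FPKM across wild-type libraries and 1.238% to 8.90% in the mutant. In the authors' deposited table a kitb transcript had an adjusted p of 0.00737, and the other was not tested.

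Melanophore markers, which accompany kita, did not pass in any of 9 tested genes, with summed levels of 76.0 to 98.8 FPKM across wild-type libraries and 74.6 to 88.8 in the mutant. Blood progenitor markers were called in 0 of 3 tested genes, and the 6 genes of that list with a value summed to 17.6 to 18.7 and 18.5 to 20.3 FPKM. Wild-type and mutant means were 6.42 and 6.96 for tal1, 6.58 and 6.46 for myb and 3.10 and 4.17 for lmo2. Below the filter they were 0.563 and 0.0341 for runx1, 0.743 and 0.764 for gata2b and 0.883 and 0.889 for gfi1aa. The genotypes did not overlap for lmo2, higher in the mutant, and runx1, lower. Before adjustment, limma's p was under 0.05 for 1 gene of each of these lists.

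pdgfra, the receptor gene for platelet-derived growth factor A (ENSDARG00000070494; chromosome 20, 22535507 to 22576582, minus strand), was the most abundant of the 9 genes. It stood at 16.4, 11.8 and 8.50 FPKM across wild-type libraries and 12.6, 13.7 and 11.6 in the mutant. The mutant values lay inside the wild-type range. Limma gave a log2 fold change of 0.082 (SE 0.20, 95% interval -0.39 to 0.56, limma adjusted p = 0.885).

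The 2 ends of pdgfra gave opposite signs. By first-exon events the libraries stood at 12.3, 11.8 and 8.50 FPKM across wild-type libraries and 12.6, 13.7 and 11.6 in the mutant, a difference of 0.21 on the log2 scale. By last-exon events they stood at 16.4, 8.26 and 7.92 in wild type and 7.28, 8.16 and 8.68 in the mutant, a difference of -0.32. The last exon held 133% of the first-exon FPKM in wild-type replicate 1 and 58.0% to 93.2% in the other libraries. No library had equal ends, which makes pdgfra the sole gene of the 9 without an even library. In the authors' deposited table both pdgfra transcripts were tested, with adjusted p of 0.464 and 0.586.

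**Figure D2:**
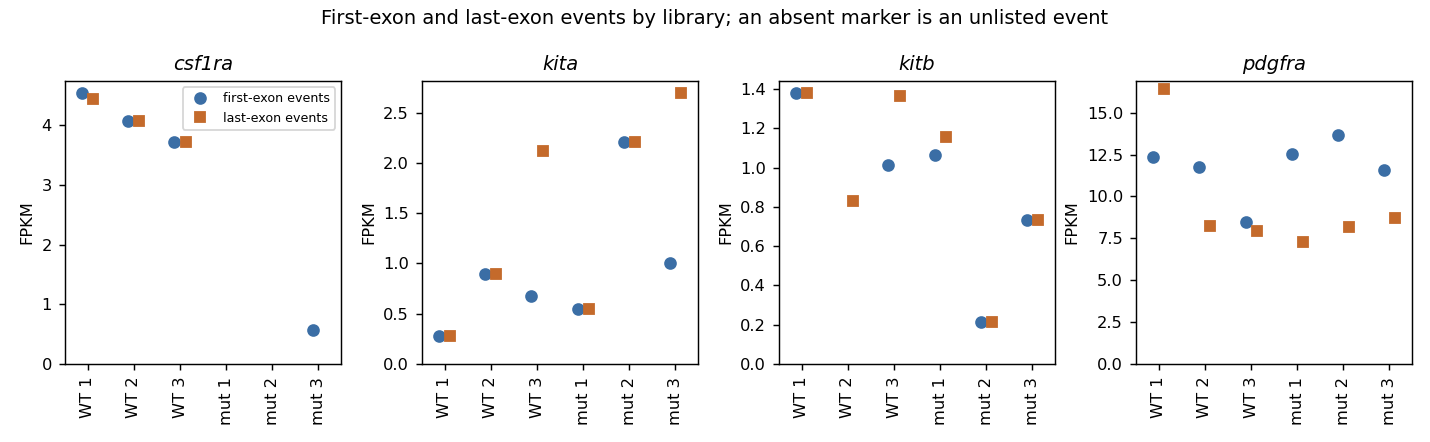
First-exon and last-exon FPKM of csf1ra, kita, kitb and pdgfra in each library (WT, wild type; mut, csf1ra mutant), where an absent marker is an event the library did not list. The ends coincide in most libraries for kita and differ in wild-type replicate 3 and mutant replicate 3, and for pdgfra the last exon lies above the first in wild-type replicate 1 alone.

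The order of the wild-type levels, per length, ran from pdgfra at 12.2 ± 4.0 FPKM (SD, n = 3) through kitlga at 7.505 ± 1.26, csf1ra at 4.11 ± 0.41, csf1b at 2.65 ± 0.47 and csf1a at 2.28 ± 0.58 to kitb at 1.19 ± 0.31, il34 at 1.17 ± 0.035 and kita at 1.097 ± 0.94. The libraries of pdgfra and kitlga overlapped, as did those of csf1b and csf1a and those of kitb, il34 and kita. Those of kitlga and csf1ra, of csf1ra and csf1b, and of csf1a and kitb did not. The wild-type values of kita spread widely, and its highest library, at 2.12 FPKM, lay inside the range of csf1a. The events labelled csf1rb, at 6.80 ± 0.79, are left out of this order. In the mutant, pdgfra at 12.6 ± 1.0 and kitlga at 8.50 ± 0.24 FPKM remained the highest of these genes and csf1ra became the lowest.

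**Figure D3:**
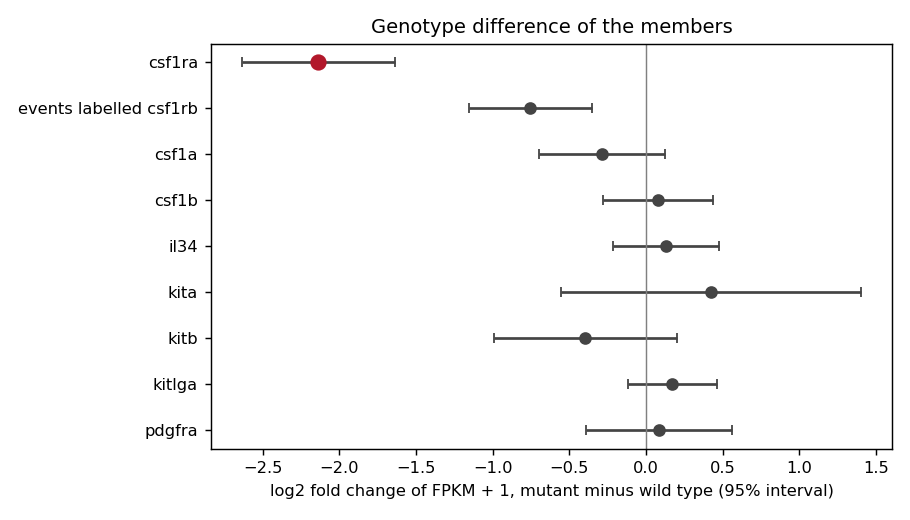
Log2 fold change of FPKM + 1, mutant minus wild type, for the 9 measured genes with 95% intervals from limma. The gene past the threshold, csf1ra at -2.14, is in red, and the intervals of the other genes except the events labelled csf1rb include 0.

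The authors' deposited table tested 8 of the 10 genes and gave 3 of them, csf1ra, csf1a and kitb, an adjusted p under 0.05 in at least 1 transcript. That share stands beside 30.1% of the 18800 genes tested there.

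The remaining genes of the family did not pass the test. Of 5 tested platelet-derived growth factor ligand genes, limma called 0, with 0 also under an unadjusted p of 0.05, and their median log2 fold change was -0.0040. pdgfaa was at 8.93 ± 0.59 FPKM across wild-type libraries and 9.49 ± 2.90 in the mutant, and pdgfc at 4.42 ± 0.41 and 4.64 ± 0.96. pdgfab stood at 4.56, 4.09 and 4.56 FPKM across wild-type libraries and 3.71, 3.33 and 4.08 in the mutant. Its genotypes did not overlap (log2 fold change -0.20, SE 0.12, limma adjusted p = 0.457), as in 10.2% of all tested genes with the mutant lower. pdgfba was at 2.22 ± 0.28 and 2.23 ± 0.55 FPKM, and pdgfbb at 1.85 ± 0.34 and 1.72 ± 0.28. kitlgb, the second Kit ligand gene, was listed in mutant replicate 2 alone, at 0.951 FPKM. flt3 and pdgfd had no total and were not analysed further.

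The VEGF receptors share the split kinase, and among them kdr sits next to kita in the genome. Of flt1, flt4, kdr and kdrl, limma called 0 of 4, and 0 had an unadjusted p under 0.05 (median 0.063). The 2 of smallest p were kdr, at 2.05 ± 0.54 and 2.42 ± 0.40 FPKM (limma adjusted p = 0.677), and flt1, at 2.55 ± 0.53 and 2.92 ± 0.58 (adjusted p = 0.741). On chromosome 20 kdr (22321315 to 22377871), kita and pdgfra follow each other in that order, with gaps of 58.0 and 56.8 kb, and none of the 3 passed. Over all neighbours of the 9 genes, kita and pdgfra included as each other's, 12 of 18 were tested by limma and 0 were called, with an unadjusted p under 0.05 in 3. Of the genes adjacent to csf1ra, the one on the lower side, at 11.1 kb, had no total. The one on the upper side, at 58.2 kb, stood at 111, 115 and 109 FPKM across wild-type libraries and 99.3, 88.1 and 105 in the mutant. It did not pass (log2 fold change -0.20, SE 0.080, limma adjusted p = 0.284). Its genotypes did not overlap, as in 10.2% of all tested genes with the mutant lower.

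Of 41 tested genes of the signalling chain below these receptors, 1 was called lower and 0 higher, with a median log2 fold change of -0.024. Over all tested genes, 1.2% were called lower and 1.21% higher. The called gene of the chain was fynb, which encodes a Src family kinase. It stood at 9.93, 7.68 and 8.08 FPKM across wild-type libraries and 4.74, 4.61 and 4.39 in the mutant (log2 fold change -0.77, SE 0.12, limma adjusted p = 0.02002). Every mutant library lay below every wild-type library, as in 10.2% of all tested genes. Of 23 other settings 13 called fynb, with adjusted p of 0.0177 to 0.0835, and the replicate block gave 0.0679. The call was lost on dropping any of 4 libraries, namely replicates 1 and 3 of wild type and 1 and 2 of the mutant, and for wild-type replicate 2 only where the filter was applied again. spry2, which encodes a Sprouty protein that dampens receptor signalling, had the next smallest p. It stood at 17.5, 20.2 and 19.9 FPKM across wild-type libraries and 25.2, 23.3 and 22.4 in the mutant (0.29, SE 0.088, adjusted p = 0.170).

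Of 12 tested transcription factors of the lineages that use these receptors, 1 was called lower and 0 higher (median -0.092). Over all tested genes, the shares were 1.2% lower and 1.21% higher. spi1a, a myeloid factor of the PU.1 family, stood at 1.75, 1.80 and 1.38 FPKM across wild-type libraries and at 0.489 FPKM in mutant replicate 1, and was unlisted in mutant replicates 2 and 3 (a difference of -1.21 on the log2 scale, SE 0.23, limma adjusted p = 0.0442). It passed the filter on low values through the wild-type libraries alone. Of 17 other settings that tested spi1a with more than 1 mutant library, 5 called it, and its adjusted p ranged from 0.0155 to 0.162. spi1b, the other PU.1 copy, was at 1.08 ± 0.13 and 1.06 ± 0.16 FPKM. sox10, a neural crest and pigment cell factor, stood at 7.82, 8.34 and 8.97 FPKM across wild-type libraries and 5.80, 6.45 and 6.08 in the mutant, and did not pass (-0.40, SE 0.097, adjusted p = 0.0951). Its genotypes did not overlap, as in 10.2% of all tested genes with the mutant lower.

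Markers of other cells that the embryos hold were read in the same way. Of 6 tested neutrophil markers 0 were called, and the 7 with a value summed to 66.8 to 75.4 FPKM across wild-type libraries and 61.3 to 63.9 in the mutant. Most of that sum was lyz, at 44.3 to 53.8 and 43.5 to 46.4 FPKM, and its genotypes overlapped. Means were lower for npsn (9.59 and 6.68), mmp9 (1.94 and 1.59) and mmp13a (1.67 and 0.488). mpx was at 6.82 and 6.86, ncf1 at 1.42 and 1.84 and cybb, below the filter, at 0.197 and 0.736. Of 10 mural cell markers 0 were called, with sums of 102 to 111 and 90.6 to 131 FPKM. Of 8 endothelial markers 0 were called, with sums of 90.02 to 100.3 and 67.4 to 78.4. Much of that sum was tek, with means of 47.3 and 29.2 FPKM. Means were also lower for fli1a (15.3 and 10.6), pecam1 (5.70 and 4.40), egfl7 (5.88 and 4.33) and esama (4.13 and 3.67). cdh5 was at 5.32 and 7.21, tie1 at 4.84 and 4.92 and kdrl at 7.31 and 7.01. The median log2 fold change of the 8 endothelial markers was -0.23. Of 10 mesenchyme and fibroblast markers, the cells in which pdgfra is best known, 0 were called, with sums of 1336 to 1538 and 893 to 1133 FPKM. Most of that sum was collagen I, with mean levels of 653 and 409 FPKM for col1a1a, 287 and 196 for col1a2 and 254 and 188 for col1a1b, while dcn was at 45.1 and 44.0 and lum at 52.6 and 55.8. The unadjusted limma p was under 0.05 in 2 neutrophil, 0 mural, 3 endothelial and 3 mesenchyme genes.

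Across all libraries, the genes whose pattern was most like that of csf1ra were ranked by Pearson's r of log2(FPKM + 1) over the 6 libraries, among 14939 genes listed in all of them with a mean of at least 1 FPKM. The 5 closest were bscl2l (r = 0.998), dnaja2l (0.997), CR759907.1 (0.995), hprt1l (0.994) and arntl1b (0.994). All 5 were lower in every mutant library than in every wild-type library and least low in mutant replicate 3, the order also seen for csf1ra. For csf1ra that order rests on values entered as 0 in mutant replicates 1 and 2 and on the first-exon event of mutant replicate 3. By last-exon events no mutant library listed csf1ra. The 5 genes were picked for likeness to csf1ra in these same libraries, so the shared order follows largely from the choice. The size differed, with log2 fold changes from -2.02 for bscl2l to -0.37 for dnaja2l and arntl1b. arntl1b did not pass the test (limma adjusted p = 0.104). bscl2l, for example, stood at 9.18, 7.69 and 8.26 FPKM across wild-type libraries and 0.922, 1.099 and 2.02 in the mutant. The genes closest to the events labelled csf1rb were si:ch73-127m5.1, sepp1a, abcb5, zgc:113176 and btbd11b, with r of 0.990 to 0.995, and none of these 5 passed the test. All libraries of a genotype share that genotype, so these values describe the libraries and carry no test.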

How the data were processed

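Per the file headers, each library's table gives the FPKM that the authors computed for each transcript-structure event (no event is listed at 0). The submitters' processing notes name, without roles or settings, Cufflinks 2.2.1, HISAT2 2.0.1, SAMtools 0.1.18, DESeq, Trimmomatic 0.30, HTSeq 0.6.1 and the build GRCz10. A further deposited table holds the authors' own p-value and adjusted p-value per transcript. Its 2 columns of FPKM per side, not named by genotype, were looked at and then used in no result, since neither side could be matched to a genotype. Read depth is unknown, and no count model was run. Errors come from library-to-library spread, which limma draws toward the spread of other genes of similar level.

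Gene names were matched through the deposited table. limma 3.58.1 in R 4.3.3 (trend and robust options, two-sided, genotype as the only term) was fitted to log2(FPKM + 1) of 15475 genes that reached 1 FPKM in 3 or more libraries, with unlisted genes at 0. Positions and totals were computed with Python 3.11.15 and pandas. The fit was also run on simulated data with the means and spreads of the real genes. The noise was normal, no filter was applied and unlisted events were not modelled. The shares called there need not hold for genes with unlisted values or unequal ends. At 1 to 15 FPKM the fit called 38% of 100 genes changed 2-fold and 82% of 100 genes changed 4-fold. A gene that did not pass can therefore still differ between the genotypes. The members and lists were chosen with earlier results of these data known. Named beyond the members were called genes and the 2 of smallest p in each pathway list, neighbours, and the 5 genes of closest pattern; spi1b, the marker genes, si:ch1073-309n14.1 and single list members were chosen after their values were seen. The csf1ra share, planned with an exact permutation test, is given without it, since csf1rb could not be read from its events. Alternatives were other scalings, filters, pseudocounts, limma options, either transcript end alone, unlisted values as missing, a replicate block and each library left out. Leaving out a library was first run with the low-value filter applied again to the remaining 5; after that output was seen it was changed to keep the genes tested over all 6, so that 1 choice moves at a time, and both versions are reported.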

Additional observations from a re-analysis of the deposited data

How the results depend on the processing

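csf1ra kept its sign and a limma adjusted p under 0.05 in 18 alternatives, 3 of them with the filter re-applied as given below. Their log2 fold changes were -4.48 to -2.03 and their adjusted p 0.000597 to 0.0423. In all of them the unlisted mutant values were entered as 0. With last-exon events alone, or without mutant replicate 3, every mutant value was such an entry. These runs share the entered values and are no independent support for the call. A further run with unlisted values as missing (-1.71) rests on 1 mutant library and is no test of the mutant's spread. A filter of 5 FPKM removes it, which leaves 0 members called there. Each library was left out in 2 ways. The filter was first applied again to the remaining 5 libraries, which called 101, 95 and 103 genes when wild-type replicate 1, 2 or 3 was dropped and 100, 88 and 397 when mutant replicate 1, 2 or 3 was dropped, against 374 over all libraries. In that version csf1ra fell below the filter whenever a wild-type library was dropped, so 0 members were called in those 3 runs and 1 in the others, and the lowest adjusted p of the events labelled csf1rb was 0.0551. After these values were seen, the genes tested over all 6 libraries were kept instead, so that 1 choice moves at a time. That change raised the counts to 138, 138 and 152 (wild-type replicates) and 145, 133 and 450 (mutant replicates), kept csf1ra tested and called in all 6 runs, and took the events labelled csf1rb past the threshold (adjusted p = 0.0486 by limma) when mutant replicate 1 was dropped, for 1 to 2 members called. The csf1rb call thus rests on that choice. With the replicate block 115 genes and 1 member were called. Deviations of same-numbered libraries correlated at -0.027, 0.0027 and 0.0064, and those of differently numbered libraries at -0.046 to 0.046. These values cannot decide whether libraries of the same number share a clutch or batch, which the labels leave unstated. The sign turned for pdgfra with last-exon events alone (-0.32). Dropping single libraries gave -0.14 to 0.30 for pdgfra, negative without wild-type replicate 3, and -0.011 to 0.17 for csf1b, negative without wild-type replicate 2 (-0.011) or mutant replicate 1 (-0.0077), in both versions. The cause was not tested. Depth is unknown, so no floor can be given for an unlisted gene.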

Other observations

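The shared locus of csf1rb was not a rare case in the deposited table. Of 31621 genes in it, 10028 (31.7%) share a locus with at least 1 other gene, and 5135 of these have no total in the tables per library.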
